A study of Mus musculus with 12 samples.

Results

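The 10 genes described here, Apoe, Blvrb, Mrps12, Pop4, Zfp93, Ercc2, Opa3, Exoc3l2, Cd3eap and Vasp, lie on mouse chromosome 7 around Map3k10, the gene of the mixed lineage kinase MLK2. They were chosen by symbol because their RNA differed between genotypes in these same libraries, so their genotype differences are given as a description, with no test. They make up 10 of the 23422 gene identifiers in the deposited table and 29 of its 52655 transcripts, and 10 of 10 reached a mean of 1 FPKM (fragments per kilobase of transcript, scaled to the mapped fragments of the library), the level at which genes entered the tests. The cells were primary lung endothelial cells (MLECs) of the mouse, grown as monolayers in serum-containing medium with endothelial mitogen and heparin. Knockout cells lacked both MLK2 and MLK3 (Mlk2-/-Mlk3-/-, DKO here), and control cells were wild type (WT, C57BL/6J in the design text). Each genotype was held for 90 min in hypoxia (1% oxygen) or kept in normoxia (21% oxygen), with 3 libraries in each of the 4 groups. The labels give no strain for the DKO cells, no age or number of mice and no account of how the alleles were made, and they do not state whether replicate libraries stem from different animals or cultures. All p-values therefore measure only the spread between these libraries, which may be technical.

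MLK2 and MLK3 are kinases that activate the JNK branch of MAP kinase signalling. When a targeted allele is carried on by breeding, sequence on the same chromosome travels with an allele until recombination separates them. The loss of Map3k10 and any other sequence carried with its targeted allele cannot be told apart in this design. The 10 genes have unrelated products. Apoe encodes the lipoprotein ligand apolipoprotein E, and Blvrb encodes biliverdin reductase B, which acts after heme oxygenase in heme breakdown. Mrps12 encodes a protein of the small subunit of the mitochondrial ribosome, and Pop4 a protein subunit shared by RNase P and RNase MRP, which process transfer RNA and ribosomal RNA precursors. Ercc2 encodes the XPD helicase of TFIIH, a factor of transcription and nucleotide excision repair. Cd3eap encodes a subunit of RNA polymerase I and Zfp93 a zinc finger protein. Opa3 encodes a mitochondrial protein named for optic atrophy, Exoc3l2 a relative of the exocyst subunit Exoc3, and Vasp an actin regulator of the Ena/VASP family.

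Both targeted genes were lower in the libraries labelled DKO. Map3k10 had 1.34, 1.15 and 1.02 FPKM in hypoxic DKO libraries and 0.145, 0.169 and 0.131 FPKM in normoxic DKO libraries, against 16.6 to 19.1 FPKM in hypoxic WT libraries and 18.3 to 19.2 FPKM in normoxic WT libraries. Map3k11, the gene of MLK3 on chromosome 19, had 10.9 to 12.2 FPKM in DKO libraries and 31.9 to 36.4 FPKM in WT libraries, so that DKO cells kept 35.3% of the WT mean in hypoxia and 32.2% in normoxia. Which exons the alleles lack is not given in the labels. Depth, estimated from the spacing of low FPKM values, ran between 21100000 and 26000000 fragments per library. Summed over 12 endothelial markers, levels lay between 4378 and 4626 FPKM in every library, although Vwf stayed under 1 FPKM throughout. Most of that sum was Egfl7 and Emcn, and single markers differed. Of 11 tested, limma called 3 higher and 1 lower in DKO cells in hypoxia and 2 higher in normoxia. Over all tested genes, 16.1% and 8.16% were called. The 12 macrophage markers summed to 65.1 to 78.6 FPKM in DKO libraries and 23.4 to 33.4 FPKM in WT libraries. Most of that sum was Lyz2, at 59.6 and 62.1 FPKM on average in hypoxic and normoxic DKO cells and 24.5 and 21.4 FPKM in hypoxic and normoxic WT cells, while Adgre1, Csf1r, C1qa, C1qb, C1qc, Fcgr1 and Itgam were under 1 FPKM in every library. Of 4 tested macrophage markers, limma called 1 as higher in DKO cells at each oxygen level, and the rest did not pass. Lymphocyte markers summed to at most 0.532 FPKM. Fibroblast marker sums, nearly all Fn1, overlapped between the genotypes (380.0 to 479 FPKM in DKO and 389 to 494 FPKM in WT libraries), but of 3 tested fibroblast markers limma called 1 higher in DKO cells in hypoxia (Dcn) and 2 in normoxia (Dcn and Col3a1). Dcn averaged 3.01 and 2.93 FPKM in hypoxic and normoxic DKO cells and 1.35 and 1.45 FPKM in hypoxic and normoxic WT cells. Both tested mural markers differed in opposite directions. Tagln, which made up most of the mural sum, averaged 24.5 and 21.1 FPKM in hypoxic and normoxic DKO cells and 36.7 and 27.7 FPKM in hypoxic and normoxic WT cells and passed as lower in hypoxia, while Acta2, at 5.75 and 4.78 FPKM in DKO cells and 3.37 and 2.51 FPKM in WT cells, passed as higher at both oxygen levels. Epithelial marker sums, mostly Krt18, were 30.5 to 32.8 FPKM in hypoxic DKO and 26.4 to 29.4 FPKM in hypoxic WT libraries and overlapped in normoxia, and of these markers Hopx passed as higher in hypoxic DKO cells. In bulk RNA, fewer cells of a type and less RNA per cell cannot be told apart, and the part of the macrophage, fibroblast, mural and epithelial markers in the genotype differences below was not tested.

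The 10 genes were not chosen on the oxygen comparisons, which are tested here, although these use the same libraries. Genotype groups of the chosen genes do not overlap, and such genes tend to have little spread within groups. Of the 10, Zfp93, Mrps12, Cd3eap and Exoc3l2 passed with oxygen in both genotypes, Mrps12 in WT cells and Exoc3l2 in DKO cells narrowly. Their promoters are shown to let a reader see what stands upstream of these 4 genes. Each line gives the 250 bases before the first start site listed by RefSeq on GRCm38.p6, read 5′ to 3′ on the strand of the gene. Capitals mark ACGTG or GCGTG on either strand, the letters of the hypoxia response element core.
Zfp93, chr7:24270168-24270417, plus strand: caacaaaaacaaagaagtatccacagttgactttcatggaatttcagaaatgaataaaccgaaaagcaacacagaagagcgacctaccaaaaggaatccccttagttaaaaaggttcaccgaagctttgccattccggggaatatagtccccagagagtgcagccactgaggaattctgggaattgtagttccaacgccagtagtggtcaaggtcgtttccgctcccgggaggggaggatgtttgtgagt
Mrps12, chr7:28741822-28742071, minus strand: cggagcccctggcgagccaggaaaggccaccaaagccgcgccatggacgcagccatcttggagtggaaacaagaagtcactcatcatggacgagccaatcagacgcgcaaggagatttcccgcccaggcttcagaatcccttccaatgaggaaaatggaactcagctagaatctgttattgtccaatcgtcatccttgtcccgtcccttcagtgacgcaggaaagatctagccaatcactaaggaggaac
Cd3eap, chr7:19359484-19359733, minus strand: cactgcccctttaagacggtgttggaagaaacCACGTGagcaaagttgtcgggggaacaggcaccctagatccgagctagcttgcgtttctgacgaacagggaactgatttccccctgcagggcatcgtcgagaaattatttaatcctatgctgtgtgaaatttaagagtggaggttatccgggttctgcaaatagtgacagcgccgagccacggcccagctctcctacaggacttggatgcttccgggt
Exoc3l2, chr7:19463037-19463286, plus strand: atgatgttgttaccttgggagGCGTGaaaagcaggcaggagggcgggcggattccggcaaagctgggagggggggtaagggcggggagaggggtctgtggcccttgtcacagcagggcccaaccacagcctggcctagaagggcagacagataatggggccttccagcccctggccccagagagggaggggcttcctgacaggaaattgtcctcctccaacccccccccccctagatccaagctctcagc
Upstream of Zfp93 and Mrps12, both lower in hypoxia, neither motif was found. The Cd3eap window held the palindrome CACGTG, which counts as an ACGTG match on both strands, and the Exoc3l2 window held 1 GCGTG. Mrps12 had 4 matches to CCAAT on either strand, left in lower case. Of 32851 RefSeq promoter windows of this length, 38.6% held ACGTG or GCGTG, 6% held CACGTG and 33.8% held CCAAT. Among the 10 genes, all of which were found in the RefSeq table, the first listed window held ACGTG or GCGTG in 6, CACGTG in 1 and CCAAT in 3. A match describes letters in the window and shows nothing about binding.

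Across genotypes, 6 genes were lower and 4 were higher in DKO cells, with the same direction in hypoxia and normoxia. Apoe, Pop4, Mrps12, Zfp93, Ercc2 and Opa3 were lower, and Blvrb, Cd3eap, Exoc3l2 and Vasp were higher. DKO and WT libraries did not overlap for 10 of 10 genes at either oxygen level, and the genes were chosen because they differed by genotype. Over all 11378 tested genes, libraries of the genotypes did not overlap for 35.8% of genes in hypoxia and 25.7% in normoxia, and an adjusted p under 0.05 was reached by 16.1% (7.68% higher, 8.42% lower) and 8.16% (3.84% higher, 4.32% lower) of them. The sizes were very unequal. Ranked by absolute log2 difference among the 11378 genes, Pop4 was number 6 in hypoxia and 8 in normoxia, Apoe 24 and 9, Blvrb 14 and 13, Mrps12 27 and 35, Zfp93 31 and 39, and Ercc2 90 and 101. Opa3, Exoc3l2, Cd3eap and Vasp ranked between 1115 and 4949.

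**Figure D1:**
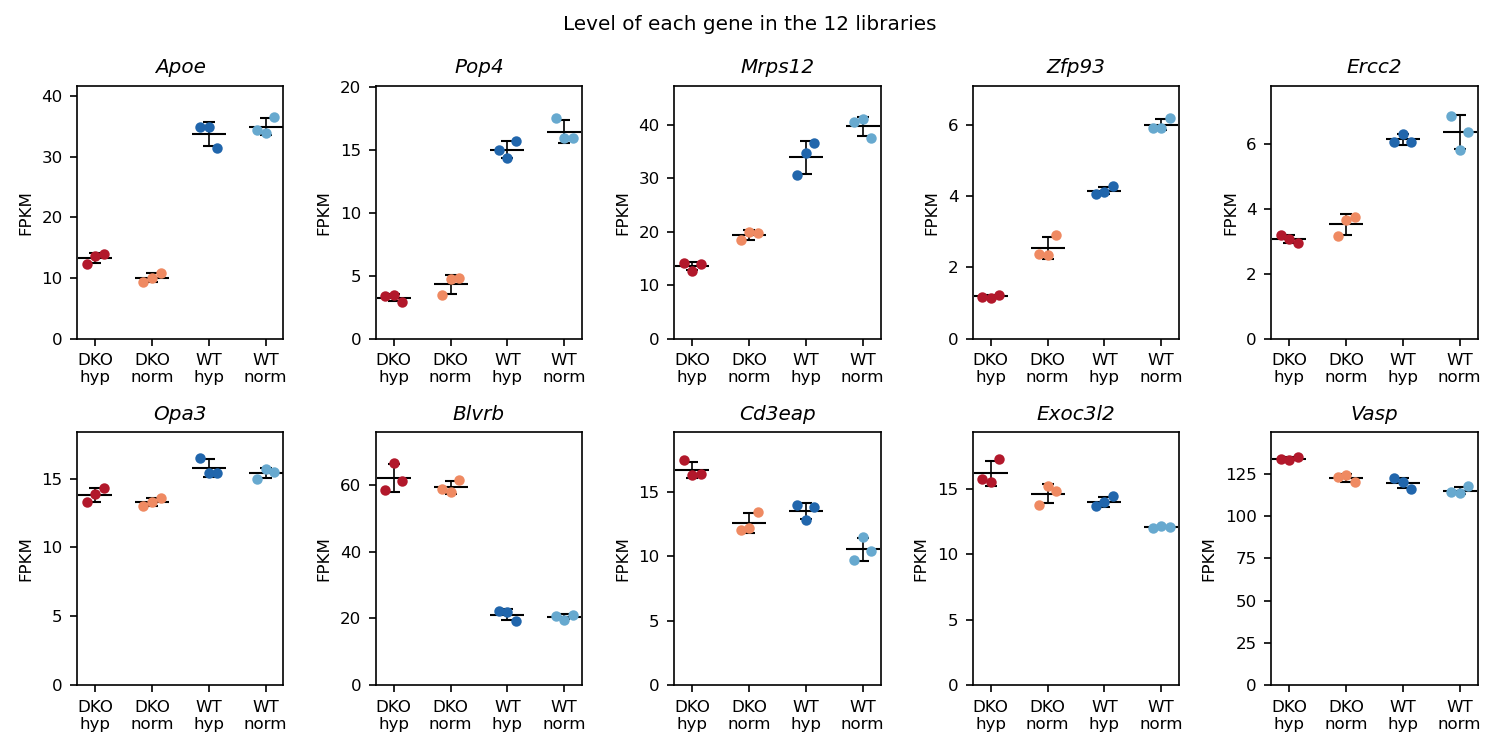
Level in FPKM (vertical axes, starting at 0) of the 10 genes in each of the 12 libraries, by group. Points are libraries, and the horizontal mark and bars give the mean ± SD of 3 libraries. Pop4 lies at 2.91 to 4.80 FPKM in DKO libraries and at 14.4 to 17.5 FPKM in WT libraries. The DKO mean of Vasp is 112% of the WT mean in hypoxia and 106% in normoxia.

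Apoe (ENSMUSG00000002985; GRCm38 chromosome 7, 19696109 to 19699188, minus strand) is the secreted ligand through which lipoproteins are taken up by receptors of the LDL receptor family. It had 12.3, 13.6 and 13.9 FPKM in hypoxic DKO libraries and 9.29, 9.94 and 10.8 FPKM in normoxic DKO libraries, against 34.9, 34.9 and 31.4 FPKM in hypoxic WT libraries and 34.3, 33.9 and 36.5 FPKM in normoxic WT libraries. DKO cells thus held 39.2% of the WT level in hypoxia and 28.7% in normoxia, log2 differences of -1.29 and -1.71 (SE 0.0646 each; all log2 differences are on the log2(FPKM + 1) scale). Within DKO cells Apoe rose in hypoxia, by 0.37 on the log2 scale (limma, adjusted p = 0.000826), and hypoxic libraries stood above normoxic ones without overlap. In WT cells hypoxic and normoxic libraries overlapped (-0.05, adjusted p = 0.63). The difference between both responses was 0.42 (SE 0.0913, limma adjusted p = 0.0787) and did not pass.

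The table splits Apoe among 10 transcripts, and the split varied between libraries of 1 group. ENSMUST00000167646 held 27.5% ± 13.9 and 32.8% ± 9.2 of the gene's FPKM in hypoxic and normoxic DKO cells and 33.4% ± 4.1 and 36.8% ± 2.9 in hypoxic and normoxic WT cells (SD, n = 3 each). The DKO rise in hypoxia was not seen in that transcript alone (0.03, limma adjusted p = 0.943). ENSMUST00000173739 passed, at 3.18 ± 0.70 FPKM in hypoxic DKO cells and 0.412 ± 0.44 FPKM in normoxic DKO cells (log2 difference 1.60, limma adjusted p = 0.00967). In WT cells it had 1.02 ± 0.73 FPKM in hypoxia and 0.775 ± 0.68 FPKM in normoxia. Its difference of oxygen responses, 1.39 (limma adjusted p = 0.321), did not pass. Of the other tested transcripts, ENSMUST00000174355 was higher in hypoxic DKO cells (0.96, adjusted p = 0.179). ENSMUST00000174064 (-0.41, adjusted p = 0.545) and ENSMUST00000172808 (-0.35, adjusted p = 0.614) were lower, and none of these passed.

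Other genes of lipoprotein uptake and lipid export went both ways. Of 12 tested genes of a 19-gene list, 3 were higher and 2 lower in DKO cells in hypoxia (background 16.1% called), and 1 was higher and 1 lower in normoxia (background 8.16%). The median log2 difference of the list was 0.02 in hypoxia and -0.02 in normoxia. Gpihbp1, which anchors lipoprotein lipase on capillary endothelium, averaged 17.0 FPKM in hypoxic DKO cells and 8.96 FPKM in hypoxic WT cells (log2 difference 0.85, limma adjusted p = 0.0011), and 15.4 FPKM in normoxic DKO cells and 5.82 FPKM in normoxic WT cells (1.25, adjusted p = 0.00013). Abcg1, a cholesterol exporter, was higher in hypoxic DKO cells (0.27, adjusted p = 0.00085), and the sorting receptor Sort1 was lower in hypoxia (-0.37, adjusted p = 0.0082) and in normoxia (-0.35, adjusted p = 0.016). With oxygen, the receptor Vldlr rose in hypoxia to 34.3 FPKM, against 21.2 FPKM in normoxia, in DKO cells (0.67, adjusted p = 0.00013) and to 38.1 FPKM, against 22.0 FPKM, in WT cells (0.77, adjusted p = 0.00016). Nr1h3, a nuclear receptor of cholesterol export, fell in both genotypes (-0.30 in DKO and -0.21 in WT cells, adjusted p = 0.0031 and 0.033), and Mylip, a ubiquitin ligase of the LDL receptor, fell in WT cells (-0.34, adjusted p = 0.0029). Counted over the list, 2 genes rose and 2 fell with hypoxia in DKO cells (background 39.3%), and 2 rose and 3 fell in WT cells (background 20.8%).

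Pop4 (ENSMUSG00000030423; chromosome 7, 38261996 to 38271423, minus strand) starts 10.6 Mb from the start of Map3k10 and is the 1 gene of the 10 beyond 10 Mb. It had 3.37, 3.46 and 2.91 FPKM in hypoxic DKO libraries and 3.46, 4.73 and 4.80 FPKM in normoxic DKO libraries, against 15.02, 14.4 and 15.7 FPKM in hypoxic WT libraries and 17.5, 15.9 and 15.9 FPKM in normoxic WT libraries. The highest DKO library thus lay far below the lowest WT library, at 21.6% of the WT mean in hypoxia and 26.3% in normoxia for the group means (log2 differences -1.92 and -1.72, SE 0.0948 each). Its single transcript, 2113 bases long, was covered by an estimated 117 to 793 fragments per library, the fewest of the 4 single-transcript genes. In DKO cells Pop4 fell with hypoxia (-0.32, limma adjusted p = 0.0182), and in WT cells the value was -0.12 (adjusted p = 0.389). The DKO call was lost when hypoxic DKO replicate 3 (adjusted p = 0.0716) or normoxic DKO replicate 2 or 3 (0.0734 and 0.073) was left out, and with quantile normalization (0.0612). A low value of 1 normoxic library, replicate 1 at 3.46 FPKM, stood at the level of the hypoxic libraries.

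The other protein subunits of RNase P and RNase MRP were tested beside it. In limma none of 9 tested genes passed in normoxia (0 at an unadjusted p under 0.05; background 8.16%), and 2 were lower in DKO cells in hypoxia (background 16.1%), Rpp21 (-0.33, limma adjusted p = 0.027) and Rpp38 (-0.42, adjusted p = 0.03). Their median was -0.15 in hypoxia and 0.03 in normoxia. With oxygen, 4 of the 9 fell and none rose in DKO cells (background 39.3%), and 1 fell in WT cells (background 20.8%). Rpp25l averaged 18.1 FPKM in hypoxic and 28.5 FPKM in normoxic DKO cells (-0.63, adjusted p = 3e-05), and 21.0 FPKM in hypoxic and 29.4 FPKM in normoxic WT cells (-0.47, adjusted p = 0.00072). Rpp38 fell in DKO cells (-0.48, adjusted p = 0.0065).

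Mrps12 (ENSMUSG00000045948; chromosome 7, 28739641 to 28741820, minus strand), 1.08 Mb from Map3k10, had 14.2, 12.7 and 13.9 FPKM in hypoxic DKO libraries and 18.4, 20.0 and 19.7 FPKM in normoxic DKO libraries. WT libraries held 30.6, 34.8 and 36.6 FPKM in hypoxia and 40.5, 41.1 and 37.6 FPKM in normoxia. All 4 groups were apart from one another, in the order DKO hypoxia, DKO normoxia, WT hypoxia, WT normoxia. DKO cells held 40.0% of the WT level in hypoxia and 48.8% in normoxia (log2 differences -1.26 and -0.998, SE 0.0668 each). Hypoxia lowered Mrps12 in DKO cells (-0.48, limma adjusted p = 0.00017). In WT cells it was also lower (-0.22, adjusted p = 0.0357), but that call was lost without hypoxic WT replicate 1 (0.137) or 2 (0.0652) and without normoxic WT replicate 1 (0.0978) or 2 (0.103). It was also lost with no filter on low values (0.0714), in a fit of the WT libraries alone (0.0633) and in the main transcript (0.0621). A second transcript, ENSMUST00000171183, made up 10.2% ± 0.3 and 12.9% ± 3.4 of its FPKM in hypoxic and normoxic DKO cells and 5.0% ± 2.9 and 5.1% ± 0.5 in hypoxic and normoxic WT cells (SD, n = 3 each).

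Among 29 other genes of the mitochondrial small subunit, 1 was higher and 1 lower in DKO cells in hypoxia (background 16.1%) and 1 was higher in normoxia (background 8.16%). These were Dap3, higher in hypoxia (0.16, limma adjusted p = 0.0073) and normoxia (0.15, adjusted p = 0.018), and Mrps22, lower in hypoxia (-0.26, adjusted p = 0.021). The list's median was 0.00 in hypoxia and -0.002 in normoxia. In DKO cells 3 genes rose and 4 fell with hypoxia (background 39.3%), among them Mrps6 (0.25, adjusted p = 0.002) and Mrps16 (-0.25, adjusted p = 0.0028). In WT cells 2 rose and 1 fell (background 20.8%). Mrps9 rose (0.12, adjusted p = 0.019) and Mrps31 fell (-0.23, adjusted p = 0.033).

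Zfp93 (ENSMUSG00000055305; chromosome 7, 24270420 to 24277794, plus strand) lies 3.39 Mb from Map3k10 and was the least abundant of the 10 genes in DKO cells. It had 1.17, 1.14 and 1.22 FPKM in hypoxic DKO libraries and 2.37, 2.34 and 2.91 FPKM in normoxic DKO libraries, against 4.06, 4.12 and 4.27 FPKM in hypoxic WT libraries and 5.91, 5.90 and 6.18 FPKM in normoxic WT libraries. None of the 4 groups overlapped. DKO cells held 28.4% of the WT level in hypoxia and 42.3% in normoxia (log2 differences -1.24 and -0.99, SE 0.0693 each). Hypoxia lowered Zfp93 in DKO cells (-0.70, limma adjusted p = 1.84e-05) and in WT cells (-0.44, adjusted p = 0.00125), to 0.464 and 0.692 times the normoxic level. With the pseudocount of 1 FPKM these log2 values understate the change of so low a gene. At a pseudocount of 0.1 FPKM the genotype differences were -1.73 in hypoxia and -1.22 in normoxia.

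Its FPKM was divided between 2 transcripts. ENSMUST00000032696 had 0.413, 5.95e-05 and 0.463 FPKM in hypoxic DKO libraries and 1.08, 1.13 and 1.14 FPKM in normoxic DKO libraries, against 2.66, 2.94 and 3.14 FPKM in hypoxic WT libraries and 3.56, 4.38 and 3.95 FPKM in normoxic WT libraries. ENSMUST00000108438 had 0.761, 1.14 and 0.757 FPKM in hypoxic DKO libraries and 1.29, 1.21 and 1.76 FPKM in normoxic DKO libraries, against 1.40, 1.18 and 1.13 FPKM in hypoxic WT libraries and 2.35, 1.52 and 2.24 FPKM in normoxic WT libraries. The gap between genotypes was wide in the first transcript. The second was also lower on average in DKO cells (log2 differences -0.25 in hypoxia and -0.32 in normoxia), but its DKO and WT libraries overlapped at both oxygen levels. In hypoxia that overlap came from DKO replicate 2 (1.14 FPKM, against 1.13 FPKM in the lowest WT library). In that DKO library the first transcript held only 5.95e-05 FPKM, and how reads were divided between both transcripts was not tested. The first transcript alone made up 24.4% ± 21.2 and 44.3% ± 4.6 of the gene in hypoxic and normoxic DKO cells and 70.1% ± 4.1 and 66.1% ± 7.2 in hypoxic and normoxic WT cells (SD, n = 3 each).

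**Figure D2:**
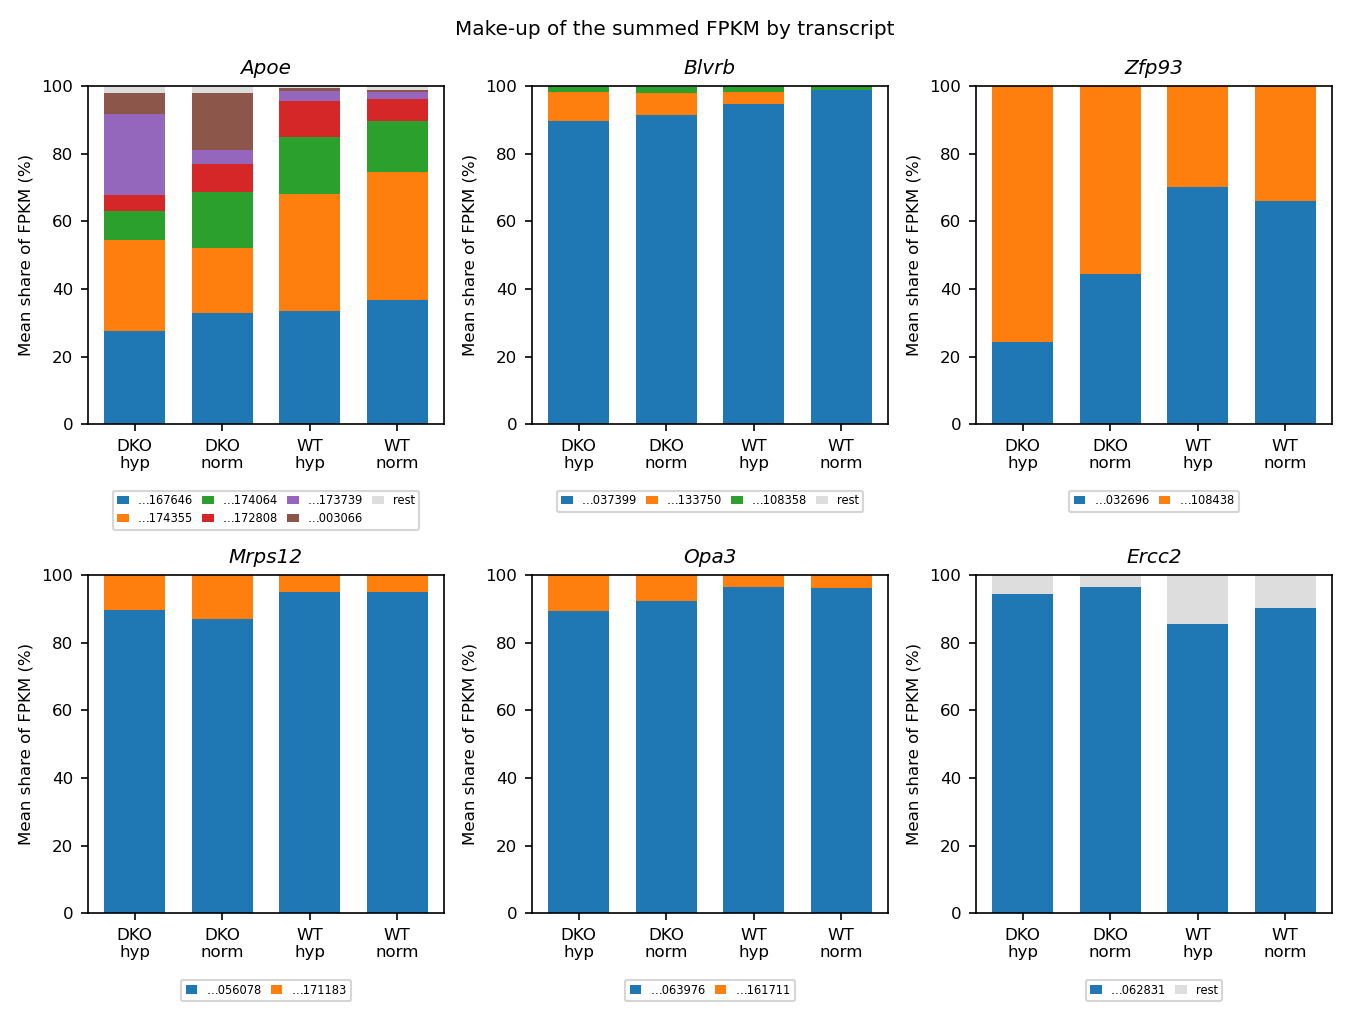
Mean share (percent of summed FPKM, 3 libraries per group) of each transcript with a mean of at least 0.5 FPKM, for the 6 genes with several transcripts. Colours are transcripts, named by the last digits of the identifier, and grey is the remainder. For Zfp93, ENSMUST00000032696 holds 24.4% and 44.3% in hypoxic and normoxic DKO cells and 70.1% and 66.1% in hypoxic and normoxic WT cells.

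Zinc finger genes of the same stretch of chromosome that changed with oxygen were lower in hypoxia. Of 44 other tested genes named Zfp that start within 20 Mb of Map3k10, 28 fell and none rose with hypoxia in DKO cells, and 15 fell and none rose in WT cells. Over all tested genes, 19.6% fell in DKO cells and 10.4% in WT cells. Zfp genes of other chromosomes were not compared here, so whether the fall is particular to this stretch was not tested. The median log2 difference of the list was -0.29 in DKO and -0.20 in WT cells. After quantile normalization 25 fell in DKO and 11 in WT cells with none higher, and with equal library medians 28 and 15 fell and 1 rose in DKO cells. Zfp329 fell most clearly in DKO cells (-1.02, limma adjusted p = 9.7e-06, against -0.42 and adjusted p = 0.008 in WT cells). Zfp110 fell in both genotypes (-0.58 in DKO and -0.42 in WT cells, adjusted p = 2.1e-05 and 0.00062), and Zfp180 did so too (-0.31 and -0.24, adjusted p = 0.0003 and 0.0041). Between genotypes, 3 of the 44 were higher and 18 lower in DKO cells in hypoxia, and 2 were higher and 7 lower in normoxia, where 8.42% and 4.32% of all tested genes were lower. Zfp235 was lower in DKO cells in hypoxia (-0.70, adjusted p = 6.5e-05) and in normoxia (-0.75, adjusted p = 5e-05). Zfp780b was lower in hypoxia (-0.55, adjusted p = 0.00014) and normoxia (-0.35, adjusted p = 0.0037). Zfp14 was higher instead (0.39 in hypoxia and 1.00 in normoxia, adjusted p = 0.042 and 0.00028).

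Ercc2 (ENSMUSG00000030400; chromosome 7, 19382010 to 19395694, plus strand) had 3.18, 3.08 and 2.95 FPKM in hypoxic DKO libraries and 3.15, 3.66 and 3.74 FPKM in normoxic DKO libraries. In WT libraries the values were 6.05, 6.31 and 6.04 FPKM in hypoxia and 6.87, 5.82 and 6.36 FPKM in normoxia. DKO cells held 50.1% of the WT level in hypoxia and 55.4% in normoxia (log2 differences -0.81 and -0.70, SE 0.0701 each), while the oxygen groups of each genotype overlapped. Hypoxia changed it by -0.15 in DKO cells (limma adjusted p = 0.113) and by -0.04 in WT cells (adjusted p = 0.72), and neither passed. Without normoxic DKO replicate 1, the lowest of its group, the DKO value was -0.21 (adjusted p = 0.0404). Klc3 overlaps the end of Ercc2 on the other strand and was itself lower in hypoxic DKO cells (1.41 FPKM, against 2.22 FPKM in WT cells; -0.42, adjusted p = 0.043). Whether reads were counted by strand is not given in the sources used here, and without strand reads of the shared stretch cannot be told apart.

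Other genes of TFIIH and nucleotide excision repair that passed were higher in DKO cells. Of 20 tested, 2 passed as higher and none as lower at each oxygen level (backgrounds 16.1% and 8.16%), with a median of 0.01 in hypoxia and 0.02 in normoxia. The nuclease gene Ercc5 was higher in hypoxia (0.19, limma adjusted p = 0.015) and normoxia (0.18, adjusted p = 0.034), the damage sensor gene Xpc in normoxia (0.20, adjusted p = 0.04), and Rad23b, whose product partners XPC, in hypoxia (0.10, adjusted p = 0.03). With hypoxia, 2 rose and 2 fell in DKO cells (background 39.3%), and 2 rose and 1 fell in WT cells (background 20.8%). Xpc fell (-0.47 in DKO and -0.27 in WT cells, adjusted p = 4.4e-05 and 0.0044), and Rad23b rose (0.28 and 0.17, adjusted p = 1.9e-05 and 0.0015).

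Opa3 (ENSMUSG00000052214; chromosome 7, 19228334 to 19256543, plus strand) showed a small difference between genotypes. It had 13.3, 13.8 and 14.3 FPKM in hypoxic DKO libraries and 13.0, 13.3 and 13.6 FPKM in normoxic DKO libraries, against 16.5, 15.4 and 15.4 FPKM in hypoxic WT libraries and 14.96, 15.7 and 15.5 FPKM in normoxic WT libraries. All 6 DKO libraries were below all 6 WT libraries, at 87.7% of the WT mean in hypoxia and 86.4% in normoxia (log2 differences -0.18 and -0.20, SE 0.0449 each). Oxygen groups overlapped in both genotypes (0.05 in DKO and 0.03 in WT cells, limma adjusted p = 0.381 and 0.657). The minor transcript ENSMUST00000161711 went the other way from the gene. It had 1.63, 1.38 and 1.43 FPKM in hypoxic DKO libraries and 1.03, 1.01 and 1.04 FPKM in normoxic DKO libraries, against 0.687, 0.315 and 0.621 FPKM in hypoxic WT libraries and 0.543, 0.625 and 0.545 FPKM in normoxic WT libraries. All 6 DKO libraries were above all WT libraries for this transcript, and its share of the gene was 10.7% ± 1.3 and 7.7% ± 0.2 in hypoxic and normoxic DKO cells and 3.4% ± 1.2 and 3.7% ± 0.2 in hypoxic and normoxic WT cells (SD, n = 3 each).

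Of 11 other genes of mitochondrial fusion and fission, 1 was lower in DKO cells in hypoxia and none passed in normoxia in limma (2 at an unadjusted p under 0.05; backgrounds 16.1% and 8.16%). That gene was Mief1 (-0.16, limma adjusted p = 0.025). With hypoxia, 1 rose and 3 fell in DKO cells (background 39.3%), and 1 rose and 2 fell in WT cells (background 20.8%). Mief1 (-0.36 in DKO and -0.25 in WT cells, adjusted p = 5.5e-05 and 0.0022) and the protease gene Oma1 (-0.38 and -0.29, adjusted p = 0.00016 and 0.003) were lower in both.

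Blvrb (ENSMUSG00000040466; chromosome 7, 27447978 to 27466144, plus strand) is the nearest of the 10 genes to Map3k10, with starts 0.208 Mb apart, and had the largest increase in DKO cells. It had 58.4, 66.5 and 61.3 FPKM in hypoxic DKO libraries and 58.7, 57.8 and 61.6 FPKM in normoxic DKO libraries, against 22.1, 22.0 and 19.1 FPKM in hypoxic WT libraries and 20.8, 19.6 and 21.0 FPKM in normoxic WT libraries. Hypoxic and normoxic libraries overlapped within each genotype, and the genotypes were far apart. The ratio of DKO to WT means was 2.95 in hypoxia and 2.90 in normoxia (log2 differences 1.52 and 1.49, SE 0.0613 each). Hypoxia changed Blvrb by 0.06 in DKO cells (limma adjusted p = 0.463) and 0.04 in WT cells (adjusted p = 0.717). The main transcript, ENSMUST00000037399, held 89.5% ± 1.6 and 91.5% ± 2.4 of the FPKM in hypoxic and normoxic DKO cells and 94.6% ± 3.7 and 98.8% ± 0.3 in hypoxic and normoxic WT cells (SD, n = 3 each). The higher macrophage marker sum of DKO libraries, mostly Lyz2, stands beside this increase, and its part in it was not tested.

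Of 8 other tested genes of heme breakdown, limma called none between genotypes in hypoxia or normoxia (2 and 2 at an unadjusted p under 0.05; backgrounds 16.1% and 8.16%), and their median log2 differences were -0.04 and -0.02. Hmox1, the inducible heme oxygenase, averaged 459 and 440.0 FPKM in hypoxic and normoxic DKO cells and 484 and 446 FPKM in hypoxic and normoxic WT cells. It passed for oxygen in WT cells (0.12, adjusted p = 0.036), the 1 call of the list with oxygen in either genotype (backgrounds 39.3% in DKO and 20.8% in WT cells).

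Cd3eap (ENSMUSG00000047649; chromosome 7, 19356014 to 19359483, minus strand) had 17.4, 16.3 and 16.4 FPKM in hypoxic DKO libraries and 12.0, 12.1 and 13.4 FPKM in normoxic DKO libraries, against 14.0, 12.8 and 13.8 FPKM in hypoxic WT libraries and 9.71, 11.5 and 10.4 FPKM in normoxic WT libraries. Its oxygen response was larger than its genotype difference. DKO cells held 124% of the WT level in hypoxia and 119% in normoxia (log2 differences 0.29 and 0.23, SE 0.0636 each). Hypoxia raised it in DKO cells (0.39, limma adjusted p = 0.000544) and in WT cells (0.34, adjusted p = 0.0038), to 1.33 and 1.29 times the normoxic level. Normoxic DKO and hypoxic WT libraries overlapped. Cd3eap shares its end with Ercc1 on the other strand, and reads there cannot be told apart without strand. Ercc1 averaged 20.4 and 22.9 FPKM in hypoxic and normoxic DKO cells and 20.1 and 21.3 FPKM in hypoxic and normoxic WT cells, and limma called it in none of the 4 comparisons (adjusted p between 0.059 and 0.84).

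Among 19 other genes of RNA polymerase I and its factors, 1 was higher and 1 lower in DKO cells in hypoxia and none passed in normoxia in limma (2 at an unadjusted p under 0.05; backgrounds 16.1% and 8.16%). Polr2h, a subunit shared by the nuclear RNA polymerases, was higher in hypoxia (0.27, limma adjusted p = 0.021), and Taf1a, a subunit of the promoter factor SL1, was lower (-0.36, adjusted p = 0.014). With hypoxia, 5 rose and 4 fell in DKO cells (background 39.3%) and 1 rose and 2 fell in WT cells (background 20.8%). In DKO cells Polr2h rose (0.38, adjusted p = 0.0011) and Taf1a fell (-0.72, adjusted p = 5.8e-05), and in WT cells Taf1d rose (0.22, adjusted p = 0.023) and Twistnb fell (-0.21, adjusted p = 0.021).

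Exoc3l2 (ENSMUSG00000011263; chromosome 7, 19463331 to 19496762, plus strand) had 15.7, 15.5 and 17.3 FPKM in hypoxic DKO libraries and 13.8, 15.2 and 14.8 FPKM in normoxic DKO libraries, against 13.7, 14.0 and 14.4 FPKM in hypoxic WT libraries and 12.0, 12.2 and 12.1 FPKM in normoxic WT libraries. Normoxic DKO and hypoxic WT libraries overlapped, and the normoxic WT libraries were the lowest. The DKO level was 115% of WT in hypoxia and 121% in normoxia (log2 differences 0.19 and 0.25, SE 0.0507 each). Hypoxia raised Exoc3l2 in WT cells (0.20, limma adjusted p = 0.0166). In DKO cells it passed only narrowly (0.14, adjusted p = 0.0491), and the call was lost in 10 of the 12 fits that left out 1 library, with adjusted p between 0.0539 and 0.192. Its relative Exoc3l was also higher in DKO cells (0.38 in hypoxia and 0.38 in normoxia, adjusted p = 0.0014 and 0.002), but was lower in hypoxia than in normoxia in both (-0.19 in DKO and -0.18 in WT cells, adjusted p = 0.026 and 0.0498).

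Over 11 other exocyst genes, 2 were higher in DKO cells in hypoxia and 1 higher and 1 lower in normoxia (backgrounds 16.1% and 8.16%). Besides Exoc3l these were Exoc4 in hypoxia (0.13, limma adjusted p = 0.014) and Exoc6, lower in normoxia (-0.19, adjusted p = 0.017). With hypoxia, 2 rose and 4 fell in DKO cells (background 39.3%) and 1 rose and 3 fell in WT cells (background 20.8%). Exoc5 rose (0.28 in DKO and 0.20 in WT cells, adjusted p = 0.00016 and 0.0044) and Exoc3 fell (-0.29 and -0.24, adjusted p = 0.00049 and 0.0038).

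Vasp (ENSMUSG00000030403; chromosome 7, 19256929 to 19271817, minus strand) was the most abundant of the 10 genes and differed least. It had 133.8, 133.3 and 134.8 FPKM in hypoxic DKO libraries and 123.1, 124.4 and 120.2 FPKM in normoxic DKO libraries, against 122.3, 120.2 and 116.2 FPKM in hypoxic WT libraries and 114.4, 113.4 and 117.6 FPKM in normoxic WT libraries. Its 2215-base transcript was covered by an estimated 5291 to 5971 fragments per library, and SDs within groups were between 0.56% and 2.59% of the mean. The DKO level was 112% of WT in hypoxia and 106% in normoxia (log2 differences 0.16 and 0.09, SE 0.0299 each). Hypoxia raised Vasp in DKO cells (0.13, limma adjusted p = 0.00533), whereas the WT value of 0.05 did not pass (adjusted p = 0.229). After quantile normalization the DKO value was 0.02 (adjusted p = 0.662), so this call depends on the scaling of the libraries.

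Among 10 other tested genes of the Ena/VASP group, 1 was higher in DKO cells in hypoxia and 1 higher and 1 lower in normoxia (backgrounds 16.1% and 8.16%). Pfn1, which supplies actin to Ena/VASP proteins, was higher in hypoxia (0.13, limma adjusted p = 0.042). In normoxia Raph1 (0.52, adjusted p = 0.0067) was higher and Vcl, an adhesion protein gene, lower (-0.25, adjusted p = 0.011). With hypoxia, 3 rose and 1 fell in DKO cells (background 39.3%), with Pfn1 higher (0.21, adjusted p = 0.001) and Raph1 lower (-0.47, adjusted p = 0.003). In WT cells 1 rose (background 20.8%), Tes (0.13, adjusted p = 0.029).

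Of the 10 genes, hypoxia changed 7 in DKO cells, 4 upward (Apoe, Cd3eap, Exoc3l2, Vasp) and 3 downward (Zfp93, Mrps12, Pop4), where 39.3% of all tested genes passed. In WT cells 4 changed, Cd3eap and Exoc3l2 upward and Zfp93 and Mrps12 downward, where 20.8% of tested genes passed. These 4 were called in the same direction in both genotypes, as were 16.8% of all tested genes. Hypoxic and normoxic libraries did not overlap for 7 of the 10 genes in DKO cells and 5 in WT cells, against 50.3% and 38.3% of all tested genes. The median absolute log2 change was 0.24 for the 10 genes and 0.15 for all genes in DKO cells, and 0.09 and 0.11 in WT cells. None of the 10 differed between genotypes in its oxygen response at an adjusted p under 0.05 in limma (background 0.193%, 22 genes; 0.0703% higher and 0.123% lower in DKO). At an unadjusted p under 0.05 there were 3, Apoe, Mrps12 and Zfp93, where 16% of all genes reached that level. A call in DKO cells without a call in WT cells, as for Apoe, Pop4 and Vasp, is therefore not shown to be a difference between the genotypes.

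**Figure D3:**
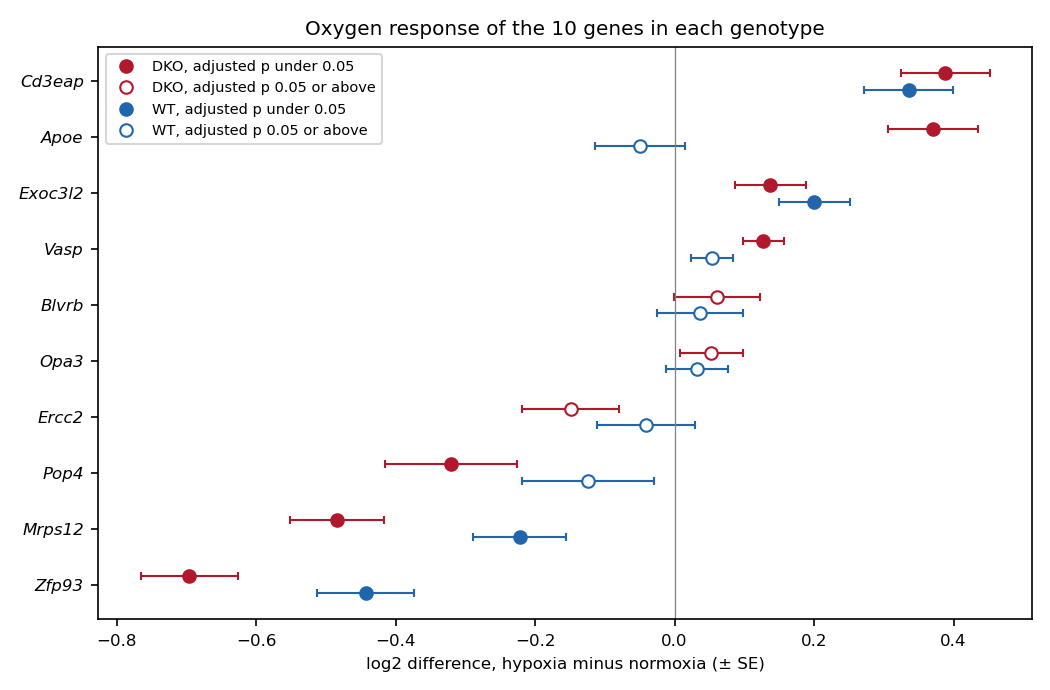
Oxygen response of the 10 genes as log2 difference of FPKM + 1, hypoxia minus normoxia (horizontal axis), with SE from limma, in DKO cells (red) and WT cells (blue). Filled points have an adjusted p under 0.05. Zfp93 is lowest in both genotypes (-0.70 in DKO and -0.44 in WT cells), and Cd3eap highest (0.39 and 0.34).

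The positions of the 10 genes fall into a cluster and 4 scattered sites. Opa3, Vasp, Cd3eap, Ercc2, Exoc3l2 and Apoe lie within 470.9 kb, about 8 Mb from Map3k10, and 12 other tested genes lie among them. Of those 12, limma called 3 between genotypes in hypoxia (Klc3, Bloc1s3 and Ppp1r37) and 2 in normoxia (Mark4 and Ppp1r37), and 8 in neither. Several of the nearest tested genes around the most different genes did not pass. Neighbours here are the nearest named tested genes outside the 10, and untested genes may lie between. Clptm1, the nearest such gene before Apoe, averaged 36.6 FPKM in hypoxic DKO cells and 37.4 FPKM in hypoxic WT cells. In normoxia it averaged 35.0 and 34.9 FPKM in DKO and WT cells (log2 differences -0.03 in hypoxia and 0.00 in normoxia, limma adjusted p = 0.58 and 0.96). Tomm40, on the other side of Apoe, was higher in hypoxic DKO cells (0.26, adjusted p = 0.0014) and gave 0.11 in normoxia (adjusted p = 0.14). Around Blvrb, Shkbp1 gave -0.08 in hypoxia and -0.07 in normoxia (adjusted p = 0.49 and 0.63), and Sertad3 gave -0.26 and -0.03 (adjusted p = 0.023 and 0.83).

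Fbxo17, next to Mrps12, was lower in DKO cells in hypoxia (1.54 FPKM, against 3.96 FPKM in WT cells; -0.97, limma adjusted p = 5.6e-05) and in normoxia (0.861 FPKM, against 2.55 FPKM; -0.93, adjusted p = 0.0001). Sars2, on the other side of Mrps12, gave -0.26 and -0.07 (adjusted p = 0.085 and 0.71). Ccne1, the nearest named tested gene before Pop4, gave -0.14 and -0.21 (adjusted p = 0.24 and 0.12). Zfp788, the nearest named tested gene after Pop4, was lower in hypoxia (-0.59, adjusted p = 0.014) and gave -0.13 in normoxia (adjusted p = 0.63). Unnamed gene models lie closer to Pop4. Of these, 1600014C10Rik, before Pop4, did not pass. AI987944 (-0.27), AW146154 (-0.36) and 2610021A01Rik (-0.40), after Pop4, were called lower in hypoxia and did not pass in normoxia. Of the neighbours of Zfp93, Zfp108 was lower in hypoxia (-0.49, adjusted p = 0.0039) and Zfp61 gave 0.10 (adjusted p = 0.54). Next to Exoc3l2, Bloc1s3 was lower in hypoxia (-0.45, adjusted p = 0.0017) and Mark4 in normoxia (-0.34, adjusted p = 0.027). Eml2, the nearest named tested gene before Opa3, and 1700058P15Rik, which lies inside Vasp on the other strand, did not pass (adjusted p between 0.57 and 0.96).

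Within 10 Mb of Map3k10, leaving out Map3k10 and the 9 of the 10 genes that lie there, 57 of 187 tested genes (30.5%) were called between DKO and WT cells in hypoxia and 34 (18.2%) in normoxia. Over all tested genes these shares were 16.1% and 8.16%. Of the same 187 genes, 19 (10.16%) were called with a log2 difference over 0.5 in hypoxia and 11 (5.88%) in normoxia, against 2.59% and 1.63% of all tested genes. Around Map3k11 the same window held 185 genes, of which 21 (11.4%) were called in hypoxia and 10 (5.4%) in normoxia. Other autosomes lay between 12.4% and 17.7% in hypoxia and between 5.3% and 9.7% in normoxia. Chromosome 7 beyond 20 Mb from Map3k10 had 18.9% and 10.0% of 512 genes. These windows are described without a test between them, and the region was singled out with genotype results of these data known.

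**Figure D4:**
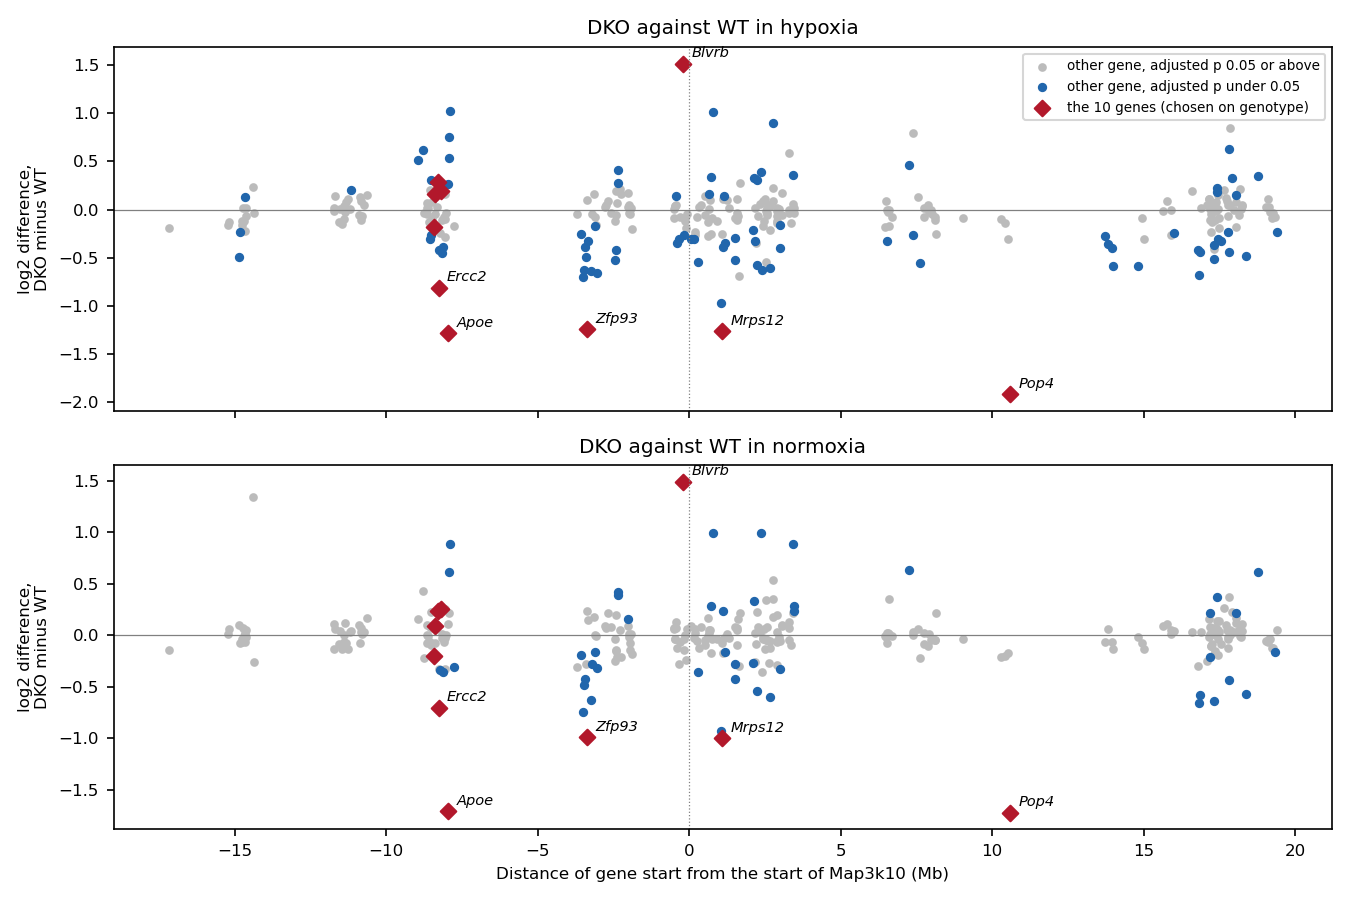
Log2 difference of FPKM + 1, DKO minus WT (vertical axes), against the distance in Mb of each gene's start from the start of Map3k10 (horizontal axis), in hypoxia (above) and normoxia (below), for all tested genes within 20 Mb except Map3k10. Red diamonds are the 10 genes, chosen on this difference, and blue points are other genes with a limma adjusted p under 0.05. Most other genes lie near 0, and Pop4 is lowest in both panels at -1.92 and -1.72.

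**Figure D5:**
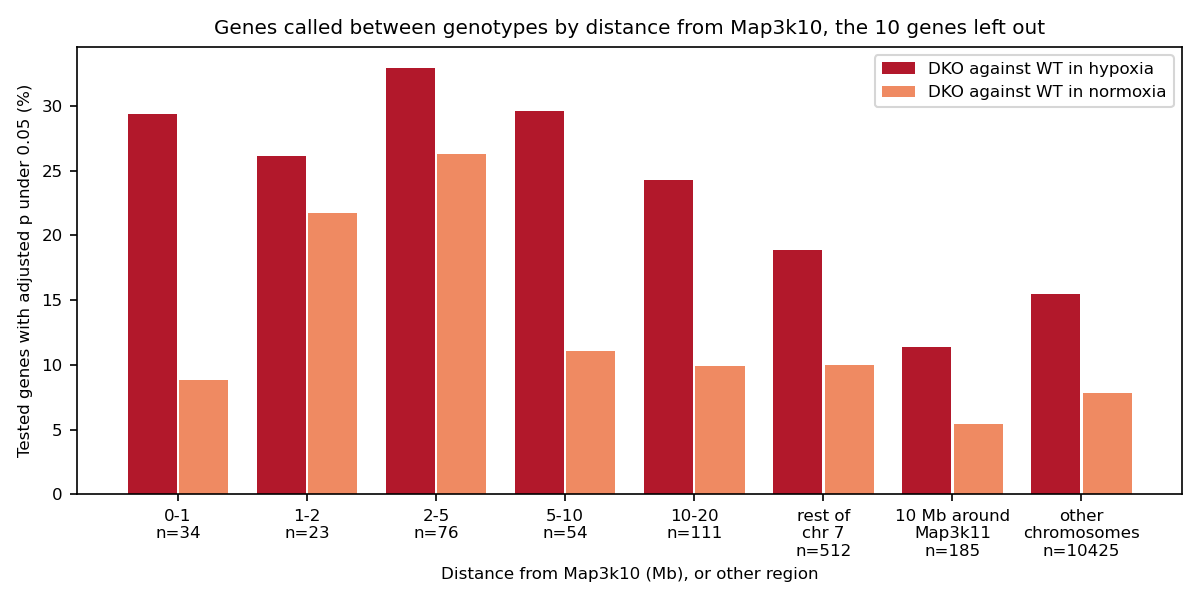
Percent of tested genes with a limma adjusted p under 0.05 between DKO and WT cells (vertical axis, from 0) by distance from Map3k10 (the 10 genes and Map3k10 left out), around Map3k11 and on the other chromosomes, in hypoxia and normoxia. Shares in hypoxia were 29.4%, 26.1%, 32.9%, 29.6% and 24.3% in the bins up to 1, 2, 5, 10 and 20 Mb, and 15.5% on other chromosomes. In normoxia the same bins had 8.8%, 21.7%, 26.3%, 11.1% and 9.9%, and other chromosomes 7.8%.

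Of the other genes in the 10 Mb window, those with the smallest adjusted p in both comparisons were Gmfg, Bcam, Pvrl2, Zfp235 and Ppp1r37. Gmfg, a gene of actin branch turnover, averaged 354 FPKM in hypoxic DKO cells and 175 FPKM in hypoxic WT cells (log2 difference 1.01, limma adjusted p = 2e-06), and 332 and 166 FPKM in normoxic DKO and WT cells (0.99, adjusted p = 3.4e-06). Bcam, which encodes a laminin-binding adhesion molecule, averaged 36.6 and 17.5 FPKM in hypoxic DKO and WT cells and 34.6 and 18.2 FPKM in normoxic DKO and WT cells (1.03 and 0.89, adjusted p = 4.1e-07 and 1.9e-06). Pvrl2, a nectin gene, was higher (0.54 in hypoxia and 0.61 in normoxia, adjusted p = 1.4e-06 and 6.4e-07). Ppp1r37, within the cluster of 6 genes, was lower (-0.39 and -0.35, adjusted p = 3.4e-05 and 8.5e-05).

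Across the 12 libraries, the named genes outside the 10 whose log2 levels followed theirs most closely mostly lay on other chromosomes. The 10 genes, all on chromosome 7, and unnamed gene models were left out of this ranking. For each gene the 3 others with the highest Pearson r were listed, which gave 25 different genes with r between 0.935 and 0.995. Of the 30 entries, 4 were on chromosome 7, which holds 7.22% of tested genes. The points share their libraries and the 2 genotypes, so these values describe the genotype pattern and carry no p. Apoe was followed most closely by Map3k10 (0.995), Fstl1 and Map3k11. Pop4 and Ercc2 were followed by Tubb2b (0.982 and 0.978) and by Map3k11 (0.980 and 0.975), and also by Phgdh (Pop4, 0.981) and Tuba1a (Ercc2, 0.981). Mrps12 was followed by Tuba1a (0.986), Unc13b and Zfp27, and Zfp93 by Rhou (0.980), Ppp1r37 and Tuba1a. Blvrb, the other way round in genotype, was followed by Clca2 (0.992) and Bcam (0.987), among others. Cd3eap was followed by Esm1 (0.975), Rrp1 and Ctgf, and Exoc3l2 by Enpp3 (0.943), Cxcl16 and Lpin3. Vasp was followed by Cxcr4 (0.991), Degs1 and Phlda3, and Opa3 by Nes (0.948), S100a6 and Cdh2. Among the 10 genes, Pop4 and Ercc2 had the highest r with each other (0.994), and Pop4 and Blvrb the most negative (-0.984).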

How the data were processed

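RNA of 12 libraries was prepared with NEBNext Ultra after RNeasy extraction, per the labels' protocols. The authors deposited 1 table of FPKM values per transcript, a unit already scaled to transcript length and library size. TopHat2 is named in the submitters' processing notes. For its version, the genome build, the annotation and the FPKM program, the sources used here give nothing. Transcripts were summed per gene identifier, and the 11378 genes that averaged 1 FPKM or more were tested with limma 3.58.1 (R 4.3.3) on log2(FPKM + 1), with 1 coefficient for each of 4 groups, 8 residual degrees of freedom, a variance trend and Benjamini-Hochberg adjustment within each comparison (threshold 0.05). The fit was tested on simulated data. Exact permutation of 3 against 3 libraries cannot go below 0.1 and was not used. Raw counts were not analysed here. Low FPKM values of single-transcript genes were whole multiples of 1 fragment, within 0.1, for 88.8% to 91.5% of values, which gave the depths. This assumes a length 275 bases shorter than the transcript, so fragment numbers are estimates.

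Positions are those of GENCODE M21 (GRCm38), where 98.0% of transcripts were found, and promoters those of RefSeq GRCm38.p6. Whether that is the authors' build is not known, so coordinates serve for names and neighbours. The 10 genes, the gene lists, the markers and the rules for naming genes were chosen with earlier results of these data known. Named genes are the 10, their nearest tested and overlapping neighbours, the 3 genes most alike in pattern (1 of which is not reported here), up to 2 genes per list and comparison, and the 5 smallest adjusted p within 10 Mb of Map3k10. Alternatives were pseudocount 0.1, no filter, a mean of 5 FPKM, quantile and median scaling, a replicate block, no trend, own libraries only, single transcripts, 5 and 20 Mb around Map3k10, and leaving out each library in turn.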

Additional observations from a re-analysis of the deposited data

Results flagged for a closer look

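Map3k10 was picked out because its oxygen response differed between genotypes. It averaged 1.17 ± 0.157 FPKM in hypoxic and 0.148 ± 0.0193 FPKM in normoxic DKO cells, and 17.5 ± 1.43 FPKM in hypoxic and 18.8 ± 0.450 FPKM in normoxic WT cells (SD, n = 3 each). The difference of the log2 responses was 1.02 (SE 0.0995, limma adjusted p = 0.00375). All 3 hypoxic DKO libraries were above all 3 normoxic ones, while the WT groups overlapped.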

How the results depend on the processing

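The 4 genotype directions of higher genes and 6 of lower genes held under every alternative run, 408 values in all, of which 18 moved in size. The genes were chosen on these differences, so this is no independent support. As their genotype groups do not overlap, leaving 1 library out could not turn a direction. Between DKO and WT in normoxia, 616 genes were called from the libraries of that comparison alone instead of 929. For the difference of oxygen responses, 22 genes became 12 after quantile normalization, 6 without the variance trend and 1 with the replicate number as a block. Other genes near Map3k10 called in hypoxia numbered 32 at a mean of 5 FPKM, where 110 of the 187 remain. With 1 library left out, the counts ran between 1175 and 1873 (DKO against WT in hypoxia, lowest without hypoxic DKO replicate 1, 1185, or hypoxic WT replicate 2, 1175), 583 and 935 (in normoxia, lowest without normoxic DKO replicate 2, 617, or WT replicate 2, 583), 3692 and 4507 (oxygen in DKO cells), 1382 and 2393 (oxygen in WT cells, lowest without hypoxic WT replicate 1, 1382, or 2, 1495), and 1 and 39 (difference of responses, 39 without hypoxic WT replicate 1, and 1 to 4 without any 1 of hypoxic DKO replicates 1 and 3, hypoxic WT replicate 2 and the 6 normoxic libraries), with 41 to 59 and 23 to 34 for the other genes near Map3k10 in hypoxia and normoxia. Of values that turned sign, the ranges with 1 library left out were -0.0942 to 0.0092 (Ercc2, oxygen in WT cells), and for the difference of responses -0.0409 to 0.0668 (Blvrb), -0.0038 to 0.0525 (Opa3) and -0.0056 to 0.1032 (Cd3eap). The 10 genes gave 5 to 7 calls with oxygen in DKO cells, 3 to 4 in WT cells and 0 to 0 for the difference.

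Values that turned sign had not passed. With oxygen in WT cells these were Blvrb in its main transcript (-0.0238), Ercc2 without normoxic WT replicate 1 (0.0092) and Vasp after quantile normalization (-0.0219). For the difference of responses they were Blvrb after quantile normalization (-0.0145), without hypoxic DKO replicate 2 (-0.0258) and without hypoxic WT replicate 3 (-0.0409), Opa3 without hypoxic DKO replicate 3 (-0.0038) and in its main transcript (-0.0273), and Cd3eap without normoxic WT replicate 2 (-0.0056). The cause was not tested. In its main transcript alone, Zfp93 did not pass with oxygen in WT cells (-0.34, limma adjusted p = 0.173).

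Deviations of same-numbered libraries from their group means correlated between -0.084 and 0.167. These values cannot tell whether libraries of the same number share an animal or culture, which the labels do not state. With the number as a block, 7 of the 10 genes were called with oxygen in DKO cells and 3 in WT cells (Mrps12 at an adjusted p of 0.0506). FPKM without counts leaves Zfp93, near 1 FPKM in hypoxic DKO cells, and split transcripts the least precise.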
